A study of Bos taurus with 8 samples.

Results

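The genes described here are 9 regulators of chondrocyte hypertrophy, chosen by name for their known roles and not by a threshold on their values: *RUNX1*, *RUNX2*, *RUNX3*, *CBFB*, *SP7*, *MEF2A*, *MEF2C*, *MEF2D* and *HDAC4*. Of these, 8 were found by name among the 24596 genes of the count table. *RUNX3* was not matched by name and was not analysed here. RNA-Seq was performed on chondrocytes of the superficial zone (SZCs) and of the deep zone (DZCs) from wild-type calves 1 to 2 weeks old, with 2 libraries per zone, labelled replicates 1 and 2. Superficial and deep slices came from shared cores of knee joint cartilage, and all cells were kept for 3 days in medium with 10% serum before RNA was taken, so the levels are those of cultured cells. Neither zone received a treatment. The purpose of the comparison was to find regulators of gene expression that differ between the zones. The deposited counts summed to between 19918970 and 21890549 per library, and *COL2A1* took between 6.31% and 24.5% of them, with the highest share in DZC replicate 1.

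In growth cartilage, chondrocytes stop dividing, enlarge and come to produce type X collagen, a change called hypertrophy that precedes replacement by bone. RUNX2 and its relative RUNX3 drive this change together with MEF2C and MEF2D, and RUNX proteins bind DNA as dimers with CBFB, a subunit that does not bind DNA itself. HDAC4, a class IIa histone deacetylase, binds MEF2 and RUNX2 proteins and holds them in check, and SP7 (osterix) acts downstream of RUNX2 in hypertrophic cells and osteoblasts. Articular chondrocytes normally stay short of hypertrophy, although the deepest cartilage of a young joint borders on tissue that is being replaced by bone.

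*RUNX2* was the regulator with the largest fitted difference between the zones among those tested, at 4.68-fold higher in DZCs, and it narrowly missed the FDR threshold of 0.05. The other tested regulators differed by 1.44-fold or less. *SP7* was close to absent in 3 libraries and well above that in DZC replicate 2. Levels are given as CPM, the counts of a gene relative to the library total and scaled by the trimmed mean of *M* values (TMM), and zones were compared by the exact test of edgeR, with p-values adjusted over 12857 genes by the Benjamini–Hochberg method (FDR). The zone difference is the fitted log2 level in SZCs minus that in DZCs, so that values below 0 mean a higher level in DZCs. That test included 7 of the 8 matched regulators and left out *SP7*, which reached 10 counts in a single library. Of the 12857 genes, 2.93% were called, 2.23% as higher in SZCs and 0.700% as higher in DZCs, and 9.09% had an unadjusted p-value below 0.05. Of the 7 regulators, 0 were called, and *RUNX2* was the 1 with an unadjusted p-value below 0.05. The quasi-likelihood test of edgeR, fitted on zone alone, did not call it either. *RUNX2* was called by DESeq2 and by a quasi-likelihood model that also held a term for replicate. The zone difference was below 0 for 3 of the 7, against 53.4% of all tested genes. The quasi-likelihood test fitted on zone alone called 0 of all 12857 genes, with 1126 at an unadjusted p-value below 0.05. Calls of other genes below therefore rest on the exact test. The labels do not say whether replicates came from separate animals, and the study's methods call them biological duplicates. In whole-culture RNA, fewer cells that express a gene and less of its RNA in each cell cannot be told apart.

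**Figure D1:**
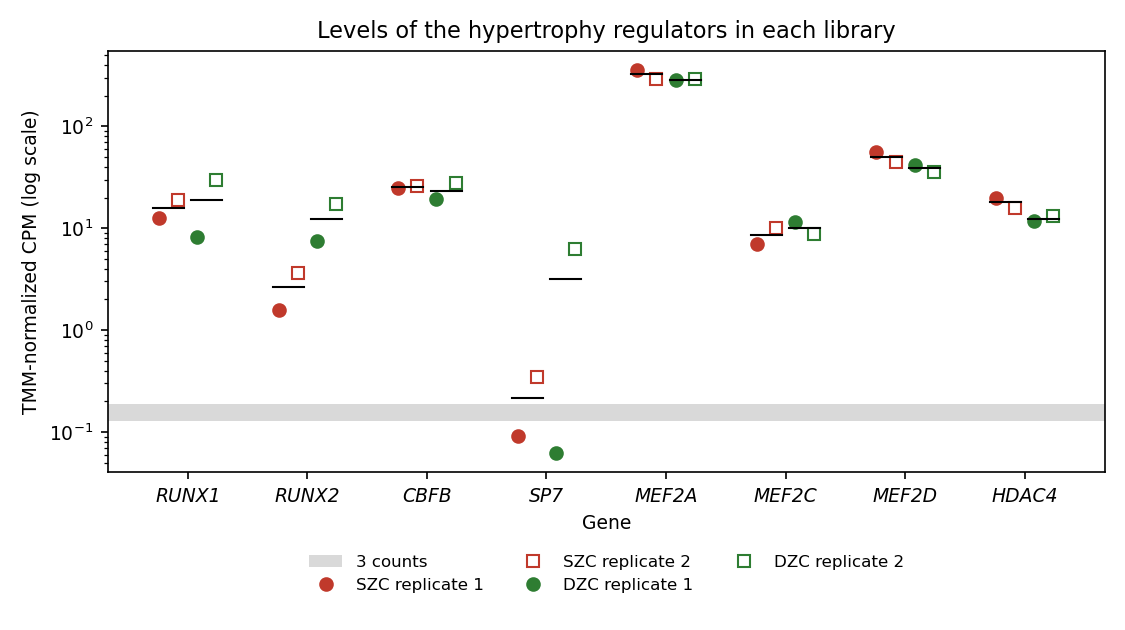
TMM-normalized CPM (log scale) of the 8 matched regulators in each library, with a black line at each zone's mean of 2 libraries. The grey band marks the level of 3 counts, between 0.129 and 0.187 CPM. Both DZC points of *RUNX2* lie above its SZC points, and *SP7* is well above the band in DZC replicate 2. Levels of different genes are not divided by transcript length and should be compared only within a gene.

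*RUNX2* (ENSBTAG00000004104) encodes the Runt-domain factor that is needed for chondrocyte hypertrophy and for osteoblast formation. Its counts in replicates 1 and 2 were 35 and 85 for SZCs, and 120 and 383 for DZCs. After scaling, its level was 1.59 and 3.66 CPM in SZCs and 7.46 and 17.2 CPM in DZCs. All of the DZC values lay above all of the SZC values, and in both zones replicate 2 was 2.30-fold higher than replicate 1. The mean of the SZC libraries was 2.62 ± 1.46 CPM (SD, n = 2), and that of the DZC libraries was 12.3 ± 6.86 CPM (SD, n = 2). This gave a zone difference of -2.23 (standard error, SE, 0.68, 95% interval -3.56 to -0.90). Its unadjusted p-value was 0.00185 and its FDR was 0.0608 by the exact test in edgeR, and 0.70% of all tested genes had a lower zone difference. DESeq2 gave an FDR of 0.0262, while the quasi-likelihood test of edgeR, fitted on zone alone, gave 0.361. Once a term for replicate was added to that model, its FDR for *RUNX2* was 0.0231, below the threshold. Whether equal replicate numbers mark a shared animal is not stated.

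The *RUNX2* difference kept its direction with each library left out, but not its size or its side of the threshold. Without DZC replicate 1 it was -2.70 (exact test FDR 1.87e-05), and without DZC replicate 2 it was -1.49 (exact test FDR 0.0512). Without SZC replicate 1 it was -1.75, and without SZC replicate 2 it was -2.95, with exact test FDR values of 1 and 0.332. In each of these fits a single library stands for its zone and is assumed to vary as the other zone does. With scaling by library totals alone, it was -2.02 and the exact test FDR rose to 0.374. In the RefSeq annotation of ARS-UCD2.0, another genome build than that of the counts, the span of *RUNX2* overlaps the gene *SUPT3H*, and counting was done without strand. *SUPT3H* had 181 and 185 counts in SZCs against 316 and 235 in DZCs, a zone difference of -0.90 (SE 0.49, exact test FDR 0.66). Reads that the pair may share cannot be told apart in these counts.

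**Figure D2:**
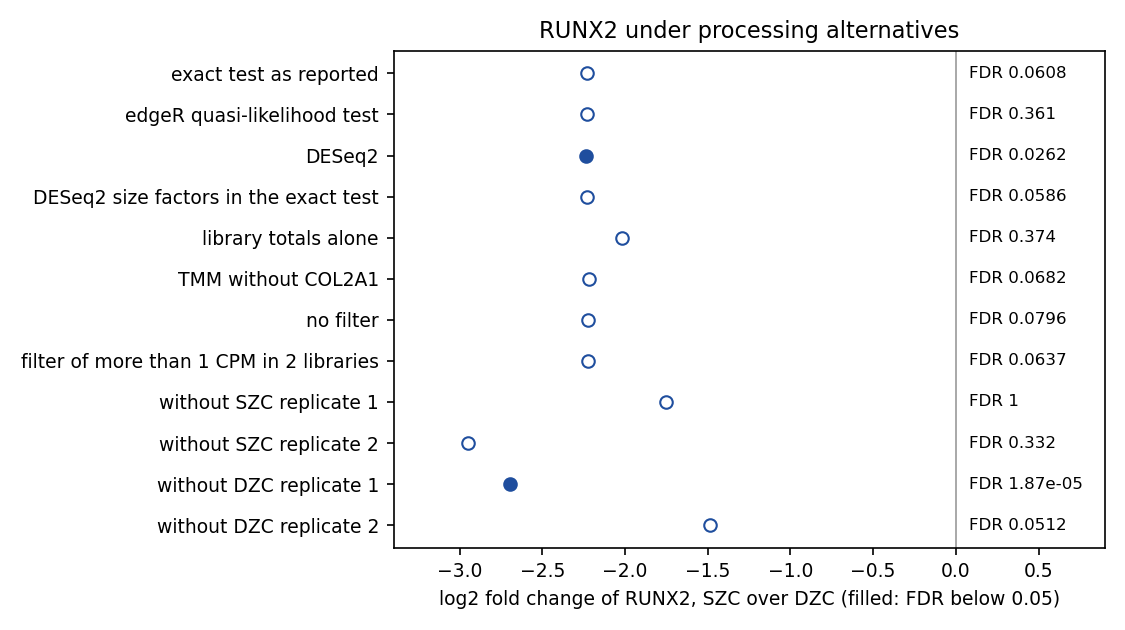
The zone difference of *RUNX2* (log2, SZC over DZC, horizontal axis) under the reported exact test and under the processing alternatives named at left, with the FDR of each at right and filled points where it was below 0.05. Every point lies below 0, between -2.95 and -1.49, and of the fits drawn, those with filled points are DESeq2 and the fit without DZC replicate 1. The quasi-likelihood fit with the replicate number as a block is not drawn (zone difference -2.23, FDR 0.0231).

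**Figure D3:**
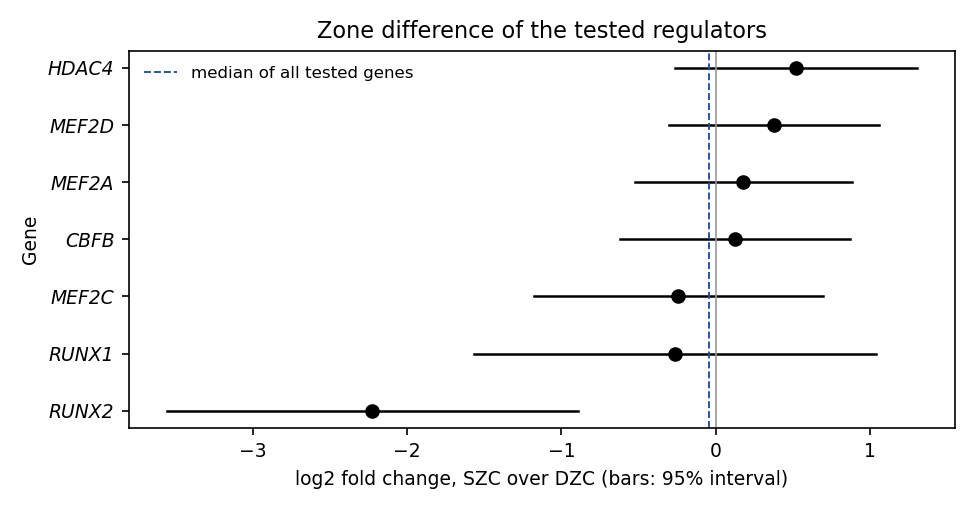
The zone difference (log2, SZC over DZC, horizontal axis) of the 7 tested regulators, with bars for 95% intervals from the negative binomial model and a dashed line at the median of all tested genes, -0.04. The interval of *RUNX2*, from -3.56 to -0.90, lies below 0, and those of the other 6 include 0.

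*RUNX1* (ENSBTAG00000004742) encodes a Runt-domain factor known from blood formation and from early cartilage. Its counts were 278 and 442 in SZCs and 132 and 665 in DZCs, or 12.6 and 19.0 CPM against 8.21 and 29.8 CPM. The lowest and the highest value were both in DZCs, so the zones overlapped. The level in DZC replicate 2 was 3.63 times that in DZC replicate 1 (95% counting interval 3.01 to 4.41), a wider gap than between the SZC libraries, which differed 1.51-fold. Its zone difference of -0.27 was smaller than its error (SE 0.67, 95% interval -1.57 to 1.04, exact test FDR 1). The direction turned on single libraries, at 0.96 without DZC replicate 2 (exact test FDR 0.0721) and -0.91 without DZC replicate 1 (exact test FDR 0.0984). The interval leaves room for a difference of over 1 log2 unit toward either zone.

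*CBFB* (ENSBTAG00000016103) is the shared partner of the RUNX proteins. There were 551 and 602 counts in SZCs and 308 and 614 in DZCs, or 25.0 and 25.9 CPM against 19.2 and 27.5 CPM. The DZC libraries lay on either side of the SZC libraries. The zone difference was 0.13 (SE 0.38, 95% interval -0.62 to 0.87, exact test FDR 1), and its direction turned to -0.11 without DZC replicate 1. In the same RefSeq annotation its span overlaps another gene, LOC101905588, which was not matched in the counts, so reads the pair may share cannot be told apart.

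Within a library, the ratio of *RUNX2* to *RUNX1* depends little on scaling, and gene length cancels when it is compared between zones. The log2 ratio, with 0.5 CPM added to each gene, was -2.65 and -2.23 in SZCs and -0.13 and -0.78 in DZCs. Relative to *RUNX1*, *RUNX2* was higher in each DZC library than in each SZC library, by 3.96-fold on average. The difference of the means, SZC minus DZC, was -1.99, and leaving out each library gave from -2.31 to -1.66. By exact two-sided permutation of the zone labels p was 0.33, the smallest value that 2 libraries against 2 allow, so this test cannot reach 0.05 here. This ratio and the other 2 within-library ratios below form a family of 3, with exact permutation p-values that become 0.5 for 2 of them and 0.667 for the other after Benjamini–Hochberg adjustment over the 3.

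**Figure D4:**
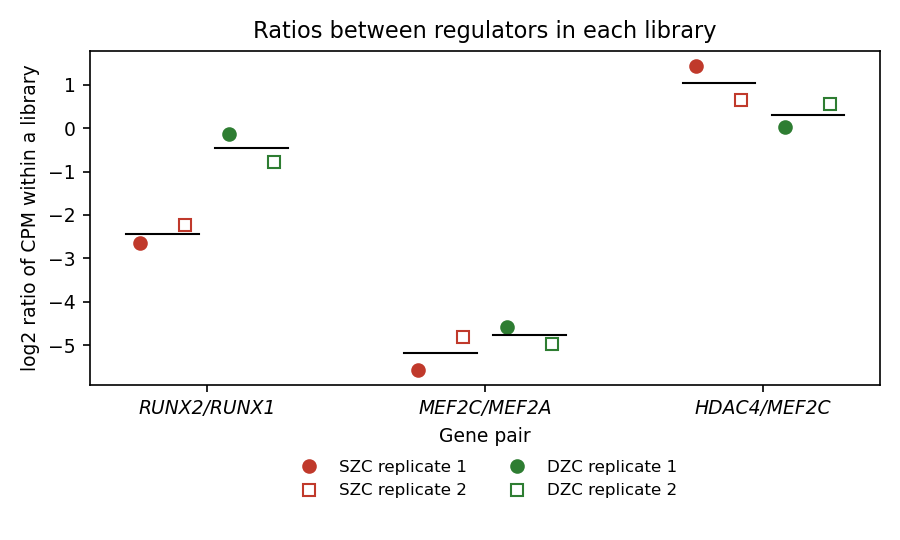
Log2 ratio of CPM between pairs of regulators in each library (0.5 CPM added), with black lines at the zone means of 2 libraries. The *RUNX2*/*RUNX1* ratio lay between -2.65 and -2.23 in SZCs and between -0.78 and -0.13 in DZCs, whereas *MEF2C*/*MEF2A* overlapped between the zones. The height of a pair also depends on the lengths of its genes, so pairs should not be compared with each other.

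*SP7* (ENSBTAG00000033292) encodes osterix, a zinc finger factor needed for osteoblast formation. There were 2 and 8 counts in SZCs, and 1 and 140 in DZCs. In CPM these were 0.0908 and 0.344 in SZCs and 0.0622 and 6.27 in DZCs. DZC replicate 2 was the high library, and SZC replicate 1 and DZC replicate 1 were both below the level of 3 counts and cannot be ranked. The level in DZC replicate 2 was 18.2 times that in SZC replicate 2 (95% counting interval 8.99 to 43.0) and 101 times that in DZC replicate 1 (95% counting interval 17.8 to 4012). Reads copied by amplification are not independent molecules, so these intervals hold no more than counting error. With no filter on low counts, the zone difference was -3.82 (exact test FDR 0.576). Without DZC replicate 2 it was 1.74 (exact test FDR 0.696), and without DZC replicate 1 it was -4.79 (exact test FDR 2.98e-08). The *SP7* difference thus rested on DZC replicate 2 and was not seen in both DZC libraries.

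Genes of hypertrophic and mineralizing matrix were examined beside *SP7*, from a list of 14 of which all were matched and 11 tested. *IHH*, the ligand made by prehypertrophic chondrocytes, was called, at 0.590 and 0.215 CPM in SZCs and 12.1 and 2.15 CPM in DZCs. The zone difference was -4.12 (SE 1.01, exact test FDR 0.016). It was highest in DZC replicate 1, where *SP7* had 1 count. The other 10 tested genes were not called, and the median zone difference of the 11 was -0.51, against -0.04 over all tested genes. The most abundant of them were *ENPP1*, *ANKH*, *VEGFA* and *SPP1*. *ENPP1*, which makes the mineralization inhibitor pyrophosphate, was at 249 and 342 CPM in SZCs and 512 and 562 CPM in DZCs (exact test FDR 0.367). *ANKH*, which releases ATP and so supplies pyrophosphate outside the cell, ran the other way, at 318 and 161 CPM in SZCs and 120 and 124 CPM in DZCs (exact test FDR 0.425). *VEGFA*, an angiogenic factor, had a zone difference of 0.55 (exact test FDR 0.839). *SPP1*, which encodes osteopontin, was at 108 and 102 CPM in SZCs and 18.9 and 201 CPM in DZCs (exact test FDR 1).

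Other genes of that list are given because, once their values were known, they were found to share the high library of *SP7*. Of the 14 genes, 7 had their highest level in DZC replicate 2 and 3 in DZC replicate 1 (*IHH*, *FOXA2* and *FOXA3*). A further 3 were highest in SZC replicate 1 (*VEGFA*, *MMP9* and *ANKH*) and 1 in SZC replicate 2 (*PHOSPHO1*). The 7 include *ENPP1*, at 562 against 512 CPM in DZC replicate 1, and *PANX3*, with 13 counts in DZC replicate 2. The share of all genes that were highest in DZC replicate 2 was not computed, so nothing is read from this count. *MMP13*, the collagenase of hypertrophic cartilage, had 468 counts in DZC replicate 2 and 0 in each other library, which makes it at least 112-fold higher there than in DZC replicate 1, with 3 counts per library as the floor. *IBSP*, a bone sialoprotein gene, had 268 counts there, 0 in DZC replicate 1, and 1 and 2 in SZCs. *ALPL*, the tissue-nonspecific alkaline phosphatase, had 445 counts there, 1 in DZC replicate 1, and 10 and 5 in SZCs. *COL10A1*, the type X collagen gene, had 221 counts there, 0 in DZC replicate 1, and 23 and 18 in SZCs. By limits chosen after the values were seen, 6 genes of the whole table reached 100 counts in DZC replicate 2 and stayed at or under 10 in the rest: *SP7*, *ALPL*, *IBSP*, *MMP13*, *PADI4* and *ANKRD1*. *RUNX2* shared only part of this, as it was also raised in DZC replicate 1 over both SZC libraries.

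**Figure D5:**
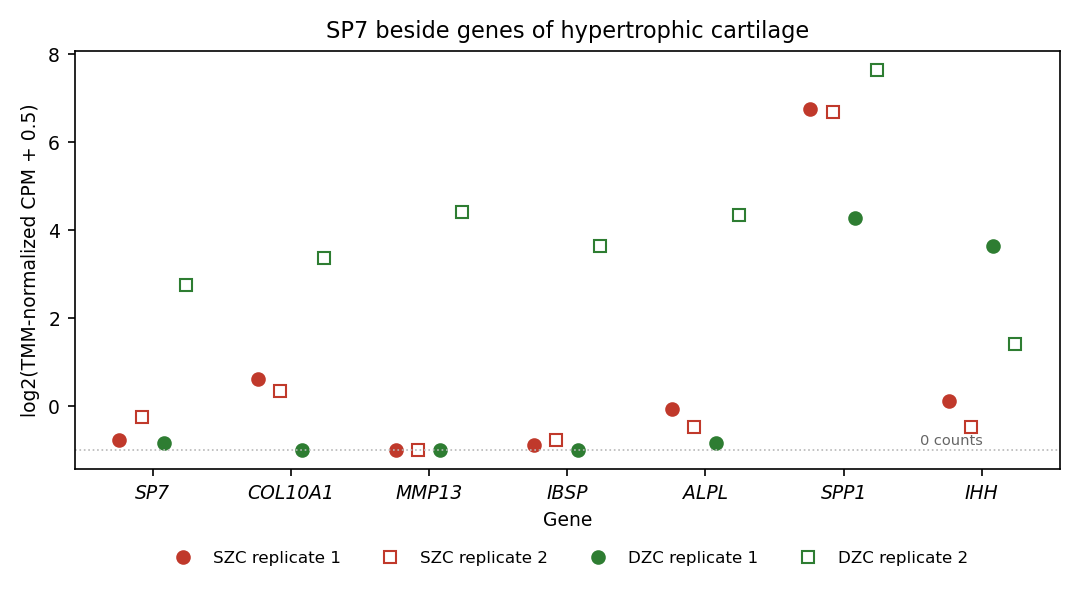
Levels of *SP7* and 6 genes of hypertrophic cartilage in each library, as log2(TMM-normalized CPM + 0.5), with a dotted line at 0 counts. *SP7*, *COL10A1*, *MMP13*, *IBSP* and *ALPL* were highest in DZC replicate 2 and at 0 or 1 counts in DZC replicate 1, while *IHH* was highest in DZC replicate 1.

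Markers of osteoblasts and osteocytes were listed apart from those genes, and none of the 6 matched was highest in DZC replicate 2. *SP7*, which also acts in osteoblasts, was outside this list, as were *IBSP*, *ALPL* and *SPP1*. All of these were highest in DZC replicate 2. *BGLAP* had 6, 1, 1 and 1 counts in SZC replicates 1 and 2 and DZC replicates 1 and 2, and *DMP1* had 2, 0, 0 and 1. *PHEX* had 33, 4, 16 and 22 counts in the same order. *MEPE* had 0 counts in all 4 libraries, and *SOST* was not matched. These markers were named after their values were seen. Of the 7 markers, 6 were matched, 3 were tested and 0 were called. Their summed level was 7784 and 16390 CPM in SZCs and 1597 and 8440 CPM in DZCs. Nearly all of it came from the type I collagen genes *COL1A1* and *COL1A2*. Both were higher in replicate 2 than in replicate 1, by 5.30-fold and 5.28-fold in DZCs and by 2.33-fold and 1.88-fold in SZCs. Whether osteoblasts were among the cells was not tested. The sum was lowest in DZC replicate 1, as *RUNX1* was, and its part in the *RUNX1* values was not tested.

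The MEF2 factors bind DNA through a MADS domain and act in muscle, vessels and cartilage. *MEF2A* (ENSBTAG00000010649) had 7875 and 6796 counts in SZCs and 4542 and 6519 in DZCs, or 358 and 293 CPM against 282 and 292 CPM. The zones did not overlap, but SZC replicate 2 and DZC replicate 2 were within counting error of each other (95% intervals 286 to 300 CPM and 285.0 to 299 CPM). Its zone difference was 0.18 (SE 0.36, 95% interval -0.53 to 0.88, exact test FDR 1).

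*MEF2D* (ENSBTAG00000046545) had 1233 and 1039 counts in SZCs and 670 and 803 in DZCs. Its level was 56.0 and 44.7 CPM in SZCs and 41.7 and 36.0 CPM in DZCs, with both SZC libraries above both DZC libraries. This was a zone difference of 0.38 (SE 0.35, 95% interval -0.30 to 1.06, exact test FDR 0.942). *MEF2C* (ENSBTAG00000020701) is the MEF2 gene whose loss blocks hypertrophy in developing bones. Its counts were 155 and 232 in SZCs and 183 and 196 in DZCs, or 7.04 and 9.99 CPM against 11.4 and 8.78 CPM. The zones overlapped, and the difference between them was -0.24 (SE 0.48, 95% interval -1.18 to 0.69, exact test FDR 1). Scaling by library totals alone gave 0.10, so its direction also depended on scaling. Such scaling moved the median of all tested genes by 0.30 on the log2 scale.

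*HDAC4* (ENSBTAG00000017764), the repressor that restrains hypertrophy, had 438 and 368 counts in SZCs and 188 and 294 in DZCs. Its level was 19.9 and 15.8 CPM in SZCs and 11.7 and 13.2 CPM in DZCs, so both SZC libraries lay above both DZC libraries. The zone difference was 0.52 (SE 0.40, 95% interval -0.26 to 1.31, exact test FDR 0.87). Counting together, 4 of the 7 tested regulators had zones that did not overlap, 3 with SZCs above (*MEF2A*, *MEF2D* and *HDAC4*) and 1 with DZCs above (*RUNX2*). Over all tested genes 41.5% had zones that did not overlap, 21.0% with SZCs above and 20.5% with DZCs above, and nothing is read from so few genes against these shares. The median zone difference of the 7 was 0.13, against -0.04 for all tested genes.

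The log2 ratio of *HDAC4* to *MEF2C* was 1.44 and 0.64 in SZCs and 0.04 and 0.56 in DZCs. The SZC values lay above the DZC values, but SZC replicate 2 and DZC replicate 2 were close. The difference of the means was 0.74 with p = 0.33 by exact permutation, and it was 0.34 without SZC replicate 1 and 1.14 without SZC replicate 2. The log2 ratio of *MEF2C* to *MEF2A* was -5.57 and -4.80 in SZCs and -4.57 and -4.98 in DZCs. These overlapped, with a difference of the means of -0.41 and p = 0.667 by the same exact permutation test. Without SZC replicate 1 it was -0.03, and without SZC replicate 2 it was -0.79.

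Among the other genes of the MEF2 and class IIa deacetylase axis, 16 of 17 were matched and 14 tested, and 1 was called. *HDAC9*, a class IIa deacetylase that like HDAC4 binds MEF2 factors, was higher in SZCs, at 25.4 and 33.5 CPM against 6.65 and 9.54 CPM in DZCs. The zone difference was 1.86 (SE 0.41, exact test FDR 0.00132). Of the most abundant genes of the list, *SIK3*, a kinase that phosphorylates class IIa deacetylases, had a zone difference of -0.17. *NCOR1*, a co-repressor that joins these deacetylases to HDAC3, had 0.32 and *HDAC5*, another class IIa deacetylase, had 0.21, none of them called (exact test FDR from 0.977 to 1). The receptor gene *PTH1R*, named after its values were seen, was at 13.8 and 14.9 CPM in SZCs and 45.8 and 17.5 CPM in DZCs (exact test FDR 0.459). *MEF2B*, the remaining MEF2 gene and likewise named after its values were seen, was at 5.22 and 5.47 CPM in SZCs and 18.3 and 6.85 CPM in DZCs (exact test FDR 0.54). In both genes DZC replicate 1 was the high library. The median zone difference of the 14 was 0.16, against -0.04 over all tested genes.

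Partners and modulators of RUNX proteins were listed under 22 symbols, of which 20 were matched and 18 tested, and 1 was called. *CBFA2T3*, a co-repressor of the ETO family, had 80 and 71 counts in SZCs and 4 and 17 in DZCs. This was 3.63 and 3.06 CPM against 0.249 and 0.762 CPM, a zone difference of 2.68 (SE 0.77, exact test FDR 0.0286). The most abundant genes of the list were not called. *ATF4*, a stress-response factor that works with RUNX2 in osteoblasts, had a zone difference of -0.41, and *WWTR1*, the co-activator TAZ, had -0.61. *SOX9*, the master regulator of chondrocytes, had -0.05 and *AES*, a member of the Groucho co-repressor family, had -0.49, with exact test FDR values from 0.735 to 1 for these 4 genes. The median of the 18 was 0.02, against -0.04 over all tested genes.

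The other SP factors, relatives of SP7, bind GC-rich promoters. Of 8 listed, *SP1*, *SP2*, *SP3* and *SP4*, factors of broad expression, were tested, and none was called (exact test FDR from 0.949 to 1, median zone difference 0.30 against -0.04 over all tested genes). *SP1* was at 72.4 and 80.2 CPM in SZCs and 49.6 and 71.4 CPM in DZCs, with SZC replicate 1 and DZC replicate 2 close to each other. Of the rest, named after their values were seen, *SP5*, *SP8* and *SP9* had 0 counts in all libraries and *SP6* had at most 1.

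The libraries had the make-up of cartilage. All 11 matched chondrocyte markers were tested, and their summed level was 135000 and 137000 CPM in SZCs and 531000 and 206300 CPM in DZCs. Of these, *MATN3* and *CNMD* were called, both higher in DZCs. *RUNX1* and *MEF2C* are also made by blood and vessel cells, so markers of those cells were counted, and the ones named here were picked after their values were seen. The 10 immune markers, of which 7 were tested and 0 called, summed to 30.8 and 42.2 CPM in SZCs and 13.4 and 24.0 CPM in DZCs. The 7 endothelial markers, of which 4 were tested and 0 called, summed to 5.72 and 12.9 CPM in SZCs and 3.92 and 8.15 CPM in DZCs. *PTPRC*, the pan-leukocyte marker, had 6, 14, 0 and 9 counts in SZC replicates 1 and 2 and DZC replicates 1 and 2. *CDH5*, an endothelial cadherin, had 1, 10, 0 and 7 counts in the same order. *VWF*, the endothelial marker with the highest mean CPM, ran otherwise, at 2.22 and 3.23 CPM in SZCs and 3.36 and 4.48 CPM in DZCs. The rest of the endothelial markers were lowest in DZC replicate 1. Both sums were lowest in DZC replicate 1, the library with the least *RUNX1* but the most *MEF2C* (11.4 CPM). Both were highest in SZC replicate 2, whereas *RUNX1* was highest in DZC replicate 2 (29.8 CPM). The part of these cells in the *RUNX1* and *MEF2C* values was not tested. The muscle regulators *MYOD1* and *MYOG*, picked in the same way, had 0 counts in all libraries. The 8 skeletal muscle markers, of which 2 were tested and 0 called, summed to between 5.84 and 16.6 CPM.

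The genes most like *RUNX2* over the 4 libraries were sought among 13501 genes with at least 10 counts in some library. Likeness was the root mean square difference between centred profiles of log2(CPM + 0.5). The closest was *USP53*, a ubiquitin-specific protease family gene, with a difference of 0.13 on the log2 scale, followed by an unnamed gene (ENSBTAG00000003275) with 0.14 and *MATN3*, a matrilin of cartilage matrix, with 0.16. *MATN3* was at 48.4 and 77.4 CPM in SZCs and 186 and 333 CPM in DZCs. The zone difference was -2.04 (SE 0.46, exact test FDR 0.00212), which follows the pattern for which it was picked and is no support for that of *RUNX2*. For *SP7* the closest were *MFAP5*, a microfibril gene, with a difference of 0.15, *PADI4*, a peptidylarginine deiminase gene, with 0.25, and *FHL2*, a LIM-domain gene, with 0.27. *MFAP5* had 2 and 11 counts in SZCs and 1 and 120 in DZCs. These likenesses are descriptions over 4 libraries that share the same zones.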

How the data were processed

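RNA-Seq of 2 SZC and 2 DZC libraries was used, and the 4 ATAC-Seq samples were not analysed here. The authors aligned single-end reads of 75 bp, from an ultra-low-input library kit, to the cow genome (Ensembl UMD 3.1) with STAR 2.5.2b and counted them per gene without strand. The deposited counts are not normalized. A table of the authors' own comparison (fold changes and FDR) served only to fill 19 blank gene names. Columns were matched to samples by zone and replicate number, and 0 columns of per-sample values were left unmatched. Replicates of a zone differed by more than sampling noise (chi-square per degree of freedom 61.9 for SZCs and 302.5 for DZCs), and each library was kept as its own sample.

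The analysis used edgeR 4.0.16 (R 4.3.3). TMM scaling, the default filter on low counts, default dispersions and the exact test were used, with an FDR threshold of 0.05, and the common biological coefficient of variation was 0.361. The paper's methods name the scaling, the test and the threshold but neither filter nor dispersion estimator. Standard errors came from the gene-wise negative binomial model, intervals are the estimate with normal 95% limits, and counting intervals are exact Poisson. Alternatives were the quasi-likelihood test with and without a replicate block, DESeq2 1.42.0, other scalings and filters, another pseudocount for ratios and leaving out each library. Scripts were tested on simulated data. The regulators, gene lists and tests were chosen with earlier results of these data known. All matched regulators are named. From each pathway list, genes passing the threshold and the 4 with the highest mean CPM are named, with the 3 genes nearest in pattern to *RUNX2* and to *SP7*. Genes overlapping *RUNX2* and marker genes of cell types fall outside this rule, and the markers and any other gene were named after their values were seen. A gene that this rule would name is not reported here. *AES* and *CNMD* were each also listed under another symbol. No set test was run. Gene coordinates and sequences are not given, because no genome of the authors' build was used here. Names of overlapping genes came from RefSeq (ARS-UCD2.0).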

Additional observations from a re-analysis of the deposited data

How the results depend on the processing

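The number of genes called was 377 and lay between 332 and 397 in 6 of the alternatives and at 347 with the replicate block, but at 0 in edgeR's quasi-likelihood test without it. Leaving out each library in turn gave from 58 to 2725 calls. With scaling by totals alone, calls higher in DZCs fell from 90 to 44 while those higher in SZCs were 287 and then 288, so that the SZC share of calls went from 76.1% to 86.7%. Among the regulators, 0 were called, but DESeq2 called 1 and so did the replicate block, each time *RUNX2*, and leaving out single libraries gave from 0 to 2 (the 2 were *RUNX2* and *SP7* without DZC replicate 1). Same-numbered libraries deviated together from their zone means (correlation 0.42 across 12857 genes, which are not independent), but no label says that a number marks a shared animal. With the number as a block, the zone difference of *RUNX2* was -2.23 with a quasi-likelihood FDR of 0.0231 (edgeR). With libraries left out in turn, directions turned for *RUNX1* (-0.91 to 0.96, with 0.001 without SZC replicate 1), *CBFB* (-0.11 without DZC replicate 1, up to 0.43) and *SP7* without the filter (-5.03 to 1.74). With library totals *MEF2C* turned to 0.10, and the cause was not tested. *RUNX2*, *MEF2A*, *MEF2D*, *HDAC4* and the 3 ratios kept their direction under every alternative run. The *SP7* counts of 8 or fewer in 3 libraries leave wide counting intervals there.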
